A study of Mus musculus with 20 samples.

Results

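The genes of the unfolded protein response and the integrated stress response were followed here in mouse tumors that had received gene transfer vectors. The set was a list of 35 gene symbols, each read from 1 probe set, the one with the highest mean over the 20 arrays among probe sets that name a single gene. All 35 were found among the 19938 genes that could be read in this way. They comprised 13 genes of the integrated stress response, 14 chaperones and folding enzymes of the endoplasmic reticulum (ER), 4 genes made up of the 3 stress sensors and Xbp1, and 4 genes of ER-associated degradation.

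The tumors were implants of LLC-1, a line derived from the Lewis lung carcinoma of the mouse, grown in C57Bl/6 hosts. Each tumor was injected 5 times, 48 h apart, with 25 µl of saline carrying an adenovirus, with a log10 viral load of 8. The groups received p19Arf together with IFNbeta (the combination), p19Arf alone, IFNbeta alone, or eGFP, a fluorescent protein that served as the vector control, with 5 arrays in each group. p19Arf is the mouse tumor suppressor that restrains Mdm2 and so stabilises p53, and IFNbeta is a type I interferon, a secreted antiviral cytokine. All 4 groups, the eGFP controls included, therefore carried an adenoviral vector, and no uninjected tumor was analysed here. The promoter that drove each transgene, the age of the mice and the interval between the last injection and collection are not stated in the sources used here. The labels number the tumors 1 to 5 in each group but do not say that each came from a separate mouse, so the p-values measure the spread between these samples. RNA came from whole tumors, so that fewer cells of a type and less RNA per cell cannot be told apart.

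The ER folds secreted and membrane proteins, and unfolded clients in its lumen switch on 3 membrane sensors, Ern1 (IRE1), Eif2ak3 (PERK) and Atf6. Ern1 splices the messenger RNA of Xbp1, and spliced XBP1 together with the released ATF6 fragment switches on chaperones and degradation genes through ER stress elements in their promoters. Eif2ak3 is also one of the kinases that phosphorylate the translation factor eIF2alpha, the step shared by ER stress, amino acid shortage, viral RNA and haem shortage. That step slows protein synthesis in general while favouring translation of ATF4, a transcription factor that acts at C/EBP-ATF response elements in front of genes for amino acid supply and for the regulators Atf3, Ddit3 (CHOP) and Trib3. Since eIF2alpha phosphorylation and ATF4 are controlled at the protein level, the arrays read only the transcripts of the pathway.

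Promoter windows illustrate how the chaperone branch and the ATF4 branch differ in sequence. RefSeq windows on build GRCm38.p6, running from 250 bases before to 50 bases after the annotated start and so 300 bases long, were at hand for 32 of the 35 genes, as 35 windows. They were searched on both strands for the ER stress element (CCAAT, any 9 bases, CCACG), the second ER stress element (ATTGG, any base, CCACG), the core of the unfolded protein response element (TGACGTGG) and the C/EBP-ATF response element (TGATG, any base, AA). The windows below, each 5′ to 3′ on the strand of its gene, show both branches: Hspa5 and Hsp90b1 for the chaperones, Trib3 and Asns for the ATF4 branch, and Herpud1, which holds a match to an element of each kind. Capitals mark the fixed letters of a match. Hspa5 lies at chr2:34771840-34772139 on the plus strand, Hsp90b1 at chr10:86705395-86705694 on the minus strand, Herpud1 at chr8:94386179-94386478 on the plus strand, Trib3 at chr2:152344011-152344310 on the minus strand and Asns at chr6:7693160-7693459 on the minus strand.
Hspa5: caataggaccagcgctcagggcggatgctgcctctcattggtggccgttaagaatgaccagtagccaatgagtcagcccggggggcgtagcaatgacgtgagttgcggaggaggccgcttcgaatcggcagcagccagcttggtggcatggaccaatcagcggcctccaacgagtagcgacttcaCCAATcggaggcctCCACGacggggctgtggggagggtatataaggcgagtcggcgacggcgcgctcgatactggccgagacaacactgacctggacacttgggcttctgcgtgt
Hsp90b1: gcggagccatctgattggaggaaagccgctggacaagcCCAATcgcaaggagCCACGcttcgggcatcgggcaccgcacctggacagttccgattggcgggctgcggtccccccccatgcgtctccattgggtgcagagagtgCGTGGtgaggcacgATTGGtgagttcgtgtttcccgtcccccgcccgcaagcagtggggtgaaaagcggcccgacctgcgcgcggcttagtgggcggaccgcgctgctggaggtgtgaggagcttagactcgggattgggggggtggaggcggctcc
Herpud1: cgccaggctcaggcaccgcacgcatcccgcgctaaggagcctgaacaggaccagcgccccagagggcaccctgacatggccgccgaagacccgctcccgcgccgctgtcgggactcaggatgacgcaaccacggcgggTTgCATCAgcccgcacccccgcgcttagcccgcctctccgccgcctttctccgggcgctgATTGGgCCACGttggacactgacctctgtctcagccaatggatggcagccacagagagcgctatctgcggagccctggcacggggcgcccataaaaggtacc
Trib3: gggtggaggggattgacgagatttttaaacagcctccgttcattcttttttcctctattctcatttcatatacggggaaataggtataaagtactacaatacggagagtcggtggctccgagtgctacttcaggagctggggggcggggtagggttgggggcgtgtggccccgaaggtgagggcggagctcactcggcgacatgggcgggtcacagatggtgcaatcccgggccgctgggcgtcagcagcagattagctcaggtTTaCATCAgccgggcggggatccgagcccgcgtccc
Asns: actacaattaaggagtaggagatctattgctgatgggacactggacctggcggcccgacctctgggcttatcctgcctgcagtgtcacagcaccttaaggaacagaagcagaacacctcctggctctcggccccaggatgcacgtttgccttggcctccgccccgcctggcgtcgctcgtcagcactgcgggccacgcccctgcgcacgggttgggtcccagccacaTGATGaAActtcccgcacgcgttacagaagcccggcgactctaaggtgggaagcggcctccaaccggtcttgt

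The ER stress element was found in 7 of the 12 chaperone genes that have a window, namely Hspa5, Hsp90b1, Calr, Canx, Pdia6, Dnajc3 and Creld2, and in Syvn1, and it occurs in 0.119% of all 32851 windows of the table. Hsp90b1 holds 2 matches, at positions -212 and -107 counted from its start. The second ER stress element was found in Herpud1 and Dnajb11, against 0.0365% of all windows. None of the 35 windows holds the unfolded protein response core, which is in 0.676% of all windows, and this says only that these letters are not in these windows. The C/EBP-ATF response element was found in 6 of the 13 integrated stress response genes, Atf3, Chac1, Trib3, Slc7a11, Asns and Vldlr, and in Herpud1, against 3.97% of all windows. In Trib3 the match begins at position 14 after the annotated start, and in Asns at position -23. A match describes letters and is not evidence of binding.

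The deposited values are log2 signals, and each array had a median between 7.49 and 7.61 over all probe sets. The spread of an array, taken as the standard deviation of its log2 values over all probe sets, ranged between 1.99 and 2.15. It averaged 2.06 ± 0.05 in the combination, 2.06 ± 0.05 with p19Arf, 2.11 ± 0.04 with IFNbeta and 2.11 ± 0.03 with eGFP (SD, n = 5 each). The 5 arrays of lowest spread were combination replicates 4 and 5, p19Arf replicates 2 and 4 and IFNbeta replicate 3, and no eGFP array was among them. Skin epidermis markers were averaged over the 8 of 10 listed genes that could be read. On the IFNbeta arrays that mean ran from 6.40 to 8.95, with a median of 6.49. Of the genes listed as carcinoma cell markers, Vim averaged 13.6 and Mki67 11.2. The epithelial genes Krt8, Krt18, Epcam and Cdh1 averaged 7.75, 7.17, 6.41 and 7.64. By mean level they stood at the 48.0, 36.7, 21.1 and 46.0 percentile of all genes. Since the RNA came from whole tumors, these values do not tell carcinoma cells from host cells. The files carry no detection calls, so that low values cannot be called absent.

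Differences between the groups were estimated with limma fitted to all 19938 genes and the 20 arrays, with Benjamini-Hochberg adjustment over all genes of a comparison, with an adjusted p under 0.05 taken as passing. No gene of the 35 passed in any of the 8 comparisons or in the F test across the 4 groups, and neither did any other gene (0% of all genes in each). The counts below are therefore of genes at an unadjusted p under 0.05, and the count over the 35 genes in each comparison is set beside the share of all genes that reached the same level. Counts with 1 array left out or under another setting show how far the set's count moves, without that share unless it is given.

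Among the regulators of the integrated stress response, Trib3 and Ddit3 had combination arrays that lay clear of the eGFP arrays. Trib3 encodes a pseudokinase that is induced by ATF4 and CHOP and dampens both. Trib3 signals were 8.81, 8.70, 8.96, 8.93 and 8.98 in combination tumors, 8.65, 9.32, 8.69, 8.77 and 8.38 in p19Arf tumors, 8.60, 8.66, 9.001, 8.68 and 9.03 in IFNbeta tumors, and 8.56, 8.54, 8.54, 8.26 and 8.35 in eGFP tumors. Every combination array and every IFNbeta array lay above all 5 eGFP arrays, while p19Arf replicate 5 fell within the eGFP range. The log2 difference from eGFP was 0.43 ± 0.13 (SE) for the combination, 0.31 ± 0.13 for p19Arf and 0.34 ± 0.13 for IFNbeta, which on the linear scale is 1.35, 1.24 and 1.27 fold. The adjusted p from limma was 0.234 for the combination, 0.661 for p19Arf and 1.0 for IFNbeta.

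Atf3 and Ddit3 encode stress-induced transcription factors downstream of ATF4. Atf3 signals were 10.13, 10.19, 10.33, 10.69 and 10.20 in combination tumors, 9.93, 10.69, 10.05, 10.06 and 9.42 in p19Arf tumors, 10.08, 10.05, 10.68, 10.00 and 10.30 in IFNbeta tumors, and 10.15, 9.90, 9.77, 9.69 and 9.64 in eGFP tumors. Ddit3 signals were 9.16, 9.16, 9.28, 9.45 and 9.17 in combination tumors, 8.95, 9.47, 9.07, 9.10 and 8.67 in p19Arf tumors, 9.08, 9.07, 9.49, 8.93 and 9.02 in IFNbeta tumors, and 8.98, 8.88, 8.86, 8.92 and 8.998 in eGFP tumors. For Atf3 a single eGFP array reached into the combination range, and for Ddit3 the combination and eGFP arrays did not overlap. In both genes p19Arf held its highest value on replicate 2 and its lowest on replicate 5, and IFNbeta held its highest on replicate 3. The difference of the combination from eGFP was 0.47 ± 0.18 (SE) for Atf3 and 0.31 ± 0.12 for Ddit3, with an adjusted limma p of 0.234 for each.

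Atf4 itself moved within a narrow band, from 10.10 to 10.42 over the 20 arrays, with a within-group SD of 0.0789. Its mean was 10.36 ± 0.05 in combination tumors, 10.27 ± 0.09 in p19Arf tumors, 10.25 ± 0.09 in IFNbeta tumors and 10.21 ± 0.07 in eGFP tumors (SD, n = 5 each). Atf5, a related factor that takes part in the mitochondrial stress response, had 8.67, 8.66, 9.15, 9.16 and 9.14 in combination tumors and 8.97, 8.77, 8.54, 8.51 and 8.46 in eGFP tumors. Its 5 combination arrays thus fell apart, replicates 1 and 2 below the others, and this lower pair lay inside the eGFP range. The remaining regulators were Chac1, a glutathione-degrading enzyme, with a mean of 8.75 ± 0.24 in combination tumors and 8.62 ± 0.17 in eGFP tumors, and Ppp1r15a (GADD34), which directs the phosphatase that reverses eIF2alpha phosphorylation, with 8.67 ± 0.23 in combination tumors and 8.46 ± 0.22 in eGFP tumors.

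**Figure D1:**
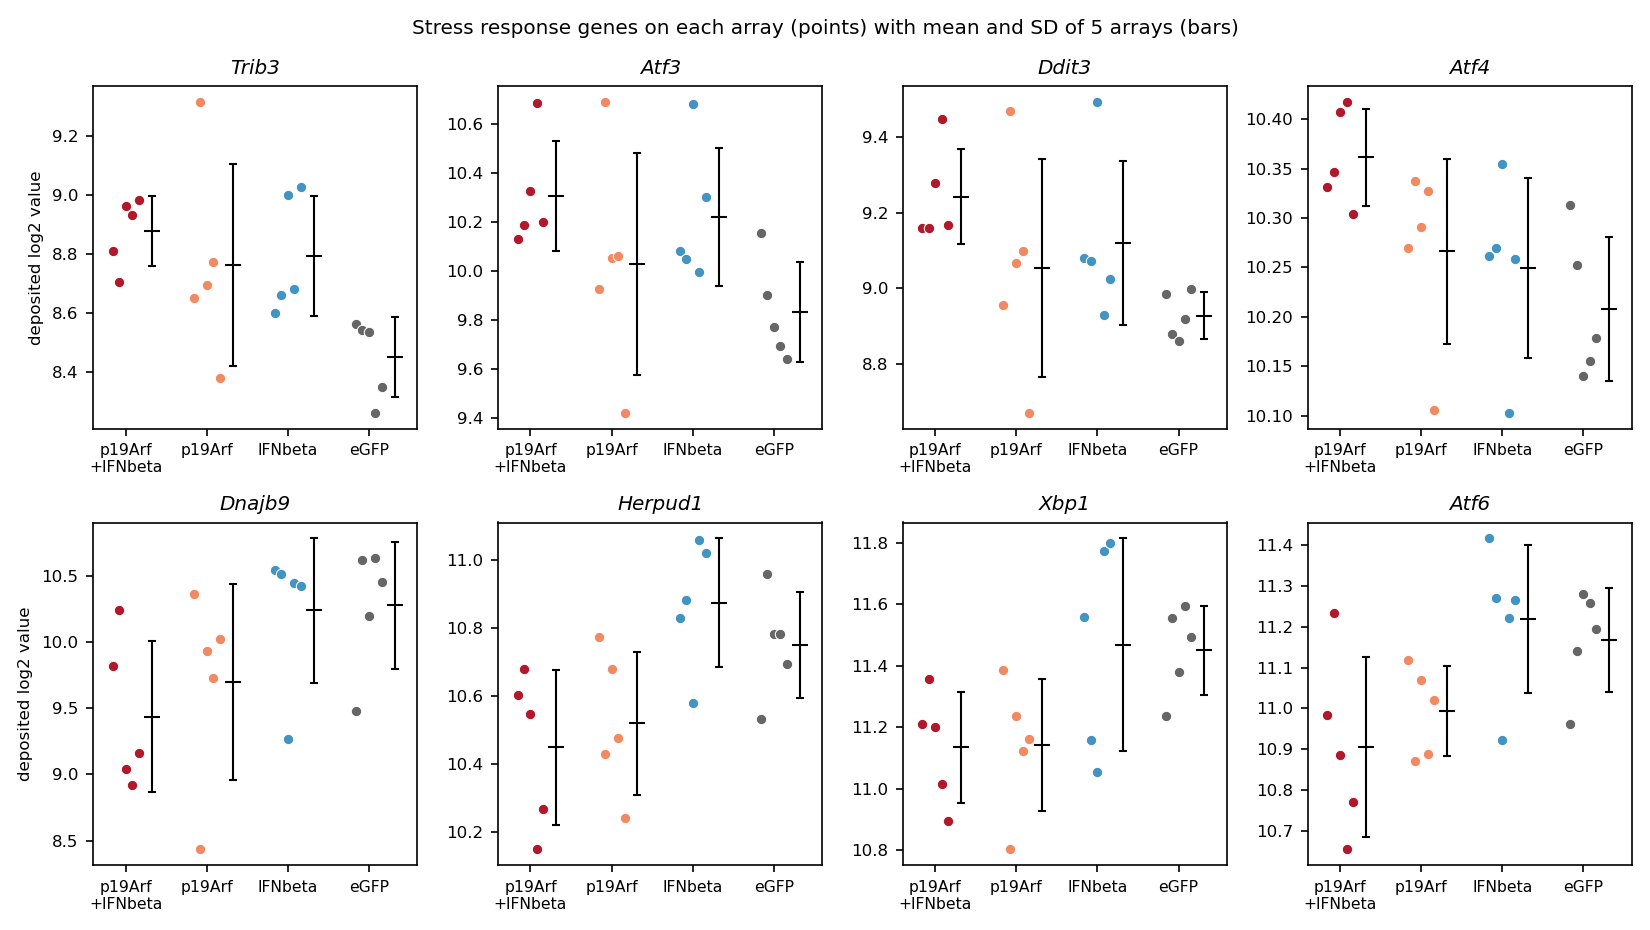
Log2 signal of 8 genes on each of the 20 arrays, with points for arrays and bars for the group mean and SD, in the order p19Arf+IFNbeta, p19Arf, IFNbeta and eGFP. All 5 combination arrays lie above the eGFP arrays for Trib3 and Ddit3, and Dnajb9 spans 8.43 to 10.64.

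The amino acid supply genes of the same arm had arrays that overlapped between the groups. Asns, which makes asparagine, had 11.30, 11.75, 11.26, 11.02 and 10.72 in combination tumors, 11.56, 10.95, 11.26, 11.16 and 10.67 in p19Arf tumors, 11.57, 11.66, 11.16, 11.76 and 11.81 in IFNbeta tumors, and 11.06, 11.34, 11.45, 11.35 and 11.30 in eGFP tumors. Psat1, an enzyme of serine synthesis, averaged 10.05 ± 0.48 in combination tumors, 10.14 ± 0.41 in p19Arf tumors, 10.54 ± 0.32 in IFNbeta tumors and 10.38 ± 0.14 in eGFP tumors (SD, n = 5 each). In both genes IFNbeta replicate 3 was the lowest IFNbeta array. Phgdh, the first enzyme of serine synthesis, averaged 9.23 ± 0.15 in combination tumors and 9.41 ± 0.21 in eGFP tumors. Slc3a2, the shared heavy chain of amino acid transporters, averaged 12.24 ± 0.23 in combination tumors and 12.33 ± 0.08 in eGFP tumors. Slc7a11, the cystine transporter, averaged 8.94 ± 0.40 in combination tumors, 9.15 ± 0.30 in IFNbeta tumors and 8.86 ± 0.14 in eGFP tumors. Vldlr, a lipoprotein receptor, stayed between 6.90 and 7.26 on all arrays.

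Among the ER chaperones and folding enzymes, Dnajb9 (ERdj4), a co-chaperone of Hspa5, was the most variable. Dnajb9 signals were 9.82, 10.24, 9.04, 8.92 and 9.16 in combination tumors, 10.36, 8.43, 9.93, 9.73 and 10.02 in p19Arf tumors, 10.54, 10.51, 9.26, 10.45 and 10.42 in IFNbeta tumors, and 9.48, 10.62, 10.20, 10.64 and 10.45 in eGFP tumors. The low arrays were thus 3 from the combination and 1 each from p19Arf, IFNbeta and eGFP, and the groups overlapped. Its within-group SD was 0.592, against 0.0959 for Manf, a secreted ER protein, and 0.130 for Calr (calreticulin), a lectin chaperone. The difference of the combination from eGFP was -0.84 ± 0.32 (SE), or 0.559 fold, with an adjusted limma p of 0.234. The master chaperone Hspa5 (BiP) averaged 12.53 ± 0.22 in combination tumors, 12.63 ± 0.18 in p19Arf tumors, 12.80 ± 0.13 in IFNbeta tumors and 12.67 ± 0.05 in eGFP tumors (SD, n = 5 each).

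The other chaperones had smaller differences than Dnajb9. Hsp90b1 (GRP94) averaged 12.55 ± 0.19 in combination tumors and 12.59 ± 0.11 in eGFP tumors, and the lectin chaperone Canx 12.63 ± 0.21 in combination tumors and 12.84 ± 0.15 in eGFP tumors. The disulfide isomerases Pdia3, Pdia4 and Pdia6 differed between combination and eGFP tumors by -0.26, -0.12 and 0.00048 on the log2 scale. The Hspa5 partners Dnajc3, Dnajb11, Sdf2l1 and Hyou1 differed by -0.13, 0.03, -0.24 and 0.0015, and the secreted ER proteins Creld2 and Manf by 0.08 and 0.12. None of these reached an unadjusted p under 0.05 in that comparison.

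Xbp1, whose spliced form drives chaperone and degradation genes, had 11.21, 11.36, 11.20, 11.02 and 10.89 in combination tumors, 11.38, 10.80, 11.24, 11.12 and 11.16 in p19Arf tumors, 11.56, 11.16, 11.05, 11.77 and 11.80 in IFNbeta tumors, and 11.23, 11.55, 11.38, 11.59 and 11.49 in eGFP tumors. Atf6 had 10.98, 11.23, 10.89, 10.66 and 10.77 in combination tumors, 11.12, 10.87, 11.07, 10.89 and 11.02 in p19Arf tumors, 11.42, 11.27, 10.92, 11.22 and 11.27 in IFNbeta tumors, and 10.96, 11.14, 11.28, 11.26 and 11.19 in eGFP tumors. Both genes were lowest on combination replicates 4 and 5 among the combination arrays, and all groups overlapped. The other 2 sensors averaged 10.07 ± 0.07 (Ern1) and 8.45 ± 0.30 (Eif2ak3) in combination tumors, against 10.00 ± 0.04 and 8.70 ± 0.17 in eGFP tumors. The array values do not separate spliced from unspliced Xbp1.

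Herpud1, an ER membrane protein that brings substrates to the degradation complex, had 10.60, 10.68, 10.55, 10.15 and 10.27 in combination tumors, 10.77, 10.43, 10.68, 10.48 and 10.24 in p19Arf tumors, 10.83, 10.88, 10.58, 11.06 and 11.02 in IFNbeta tumors, and 10.53, 10.96, 10.78, 10.78 and 10.70 in eGFP tumors. Apart from IFNbeta replicate 3, the IFNbeta arrays all lay above the combination and p19Arf arrays. Of the other degradation genes, Sel1l, the adaptor of the ubiquitin ligase, averaged 10.36 ± 0.23 in combination tumors, 10.62 ± 0.13 in IFNbeta tumors and 10.51 ± 0.13 in eGFP tumors. Edem1, a mannose-trimming lectin, averaged 11.01 ± 0.22 in combination tumors, 11.26 ± 0.22 in IFNbeta tumors and 11.16 ± 0.10 in eGFP tumors. Syvn1, the ligase itself, stayed between 9.60 and 10.12.

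With IFNbeta alone, nearly the whole set had a slightly higher mean than with eGFP. The mean was higher in 33 of 35 genes, with a median log2 difference of 0.11, against a median of -0.02 over all genes, of which 44.2% were higher. All 13 integrated stress response genes (median 0.16), 12 of 14 chaperones (0.12), all 4 sensor genes and all 4 degradation genes were on the higher side. After quantile normalization this was so for 31 of 35 genes, 11 of them of the integrated stress response. Only Trib3, Atf3 (0.39 ± 0.18, SE) and Creld2 (0.20 ± 0.10) were at an unadjusted p under 0.05, which is 8.57% of the set against 2.79% of all genes, or 1.34% of all genes counting higher ones alone. The 3 became 1 without eGFP replicate 3, 4 or 5 and 0 without IFNbeta replicate 5. They became 6 after quantile normalization (2.71% of all genes), 5 with the array spread as a term (5.43%), 5 with array weights (15.7%) and 7 when only the IFNbeta and eGFP arrays were fitted (5.63%). The smallest adjusted p of any gene in this comparison was 0.836. Short of that level, Asns differed by 0.29, Ddit3 by 0.19, Dnajb11 by 0.17, Hyou1 by 0.16, Herpud1 by 0.12 and Ern1 by 0.11. Calr and Trib3 were the 2 genes whose IFNbeta arrays all lay above all eGFP arrays, as did 0.552% of all genes. Calr had 12.67, 12.67, 12.71, 12.68 and 12.72 in IFNbeta tumors, against 12.46, 12.47, 12.60, 12.56 and 12.58 in eGFP tumors. For each of the 2 genes the two-sided exact permutation p was 0.00794, the smallest that 5 against 5 arrays can give, unadjusted among 175 such tests.

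With p19Arf alone, 13 genes had a higher and 22 a lower mean than with eGFP, with a median difference of -0.04 against 0.02 over all genes. Quantile normalization turned this split to 22 higher and 13 lower. Trib3 and Xbp1 (-0.31 ± 0.14, SE, adjusted limma p 0.661) were at an unadjusted p under 0.05, 5.71% of the set against 7.25% of all genes. By direction, 2.84% of all genes were higher and 4.40% lower at that level. The 2 became 5 without eGFP replicate 1 or p19Arf replicate 1, 1 without eGFP replicate 2, and 0 without eGFP replicate 4, eGFP replicate 5 or p19Arf replicate 2. Of the named genes that did not reach it, Sdf2l1 differed by -0.28, Herpud1 by -0.23, Dnajb9 by -0.58, Atf6 by -0.17, Pdia6 by 0.13 and Vldlr by 0.11.

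In the combination several regulators of the integrated stress response had higher means than with eGFP, and several ER genes lower ones, though none passed after adjustment. At an unadjusted p under 0.05 there were 5 higher genes, Trib3, Atf3, Ddit3, Atf5 (0.30 ± 0.14, SE) and Atf4 (0.15), and 4 lower ones, Dnajb9, Herpud1 (-0.30 ± 0.12), Atf6 (-0.26 ± 0.11) and Xbp1 (-0.32 ± 0.14). These 9 are 25.7% of the set against 17.6% of all genes. By direction, 14.3% of the set was higher against 6.18% of all genes. The lower genes were 11.4% of the set and 11.4% of all genes, so they were no more frequent in the set than elsewhere. The 9 became 4 without combination replicate 4, and 5 without combination replicate 5 or eGFP replicate 4. All 9 had an adjusted limma p between 0.234 and 0.278. Over the whole set 16 genes were higher and 19 lower (median -0.05), with 9 of 13 higher in the integrated stress response arm (median 0.13) and 9 of 14 lower among the chaperones (median -0.08). The chaperone count did not keep its direction: after quantile normalization 5 of 14 were lower, and 9 genes of the set were higher and 1 lower at an unadjusted p under 0.05, while median centring gave 3 higher and 5 lower. Trib3 and Ddit3 were the 2 genes of the set with no overlap between combination and eGFP arrays, each with an exact permutation p of 0.00794. Their combination arrays all lay above the eGFP arrays, as in 0.782% of all genes. In another 0.547% of all genes the combination arrays all lay below.

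**Figure D2:**
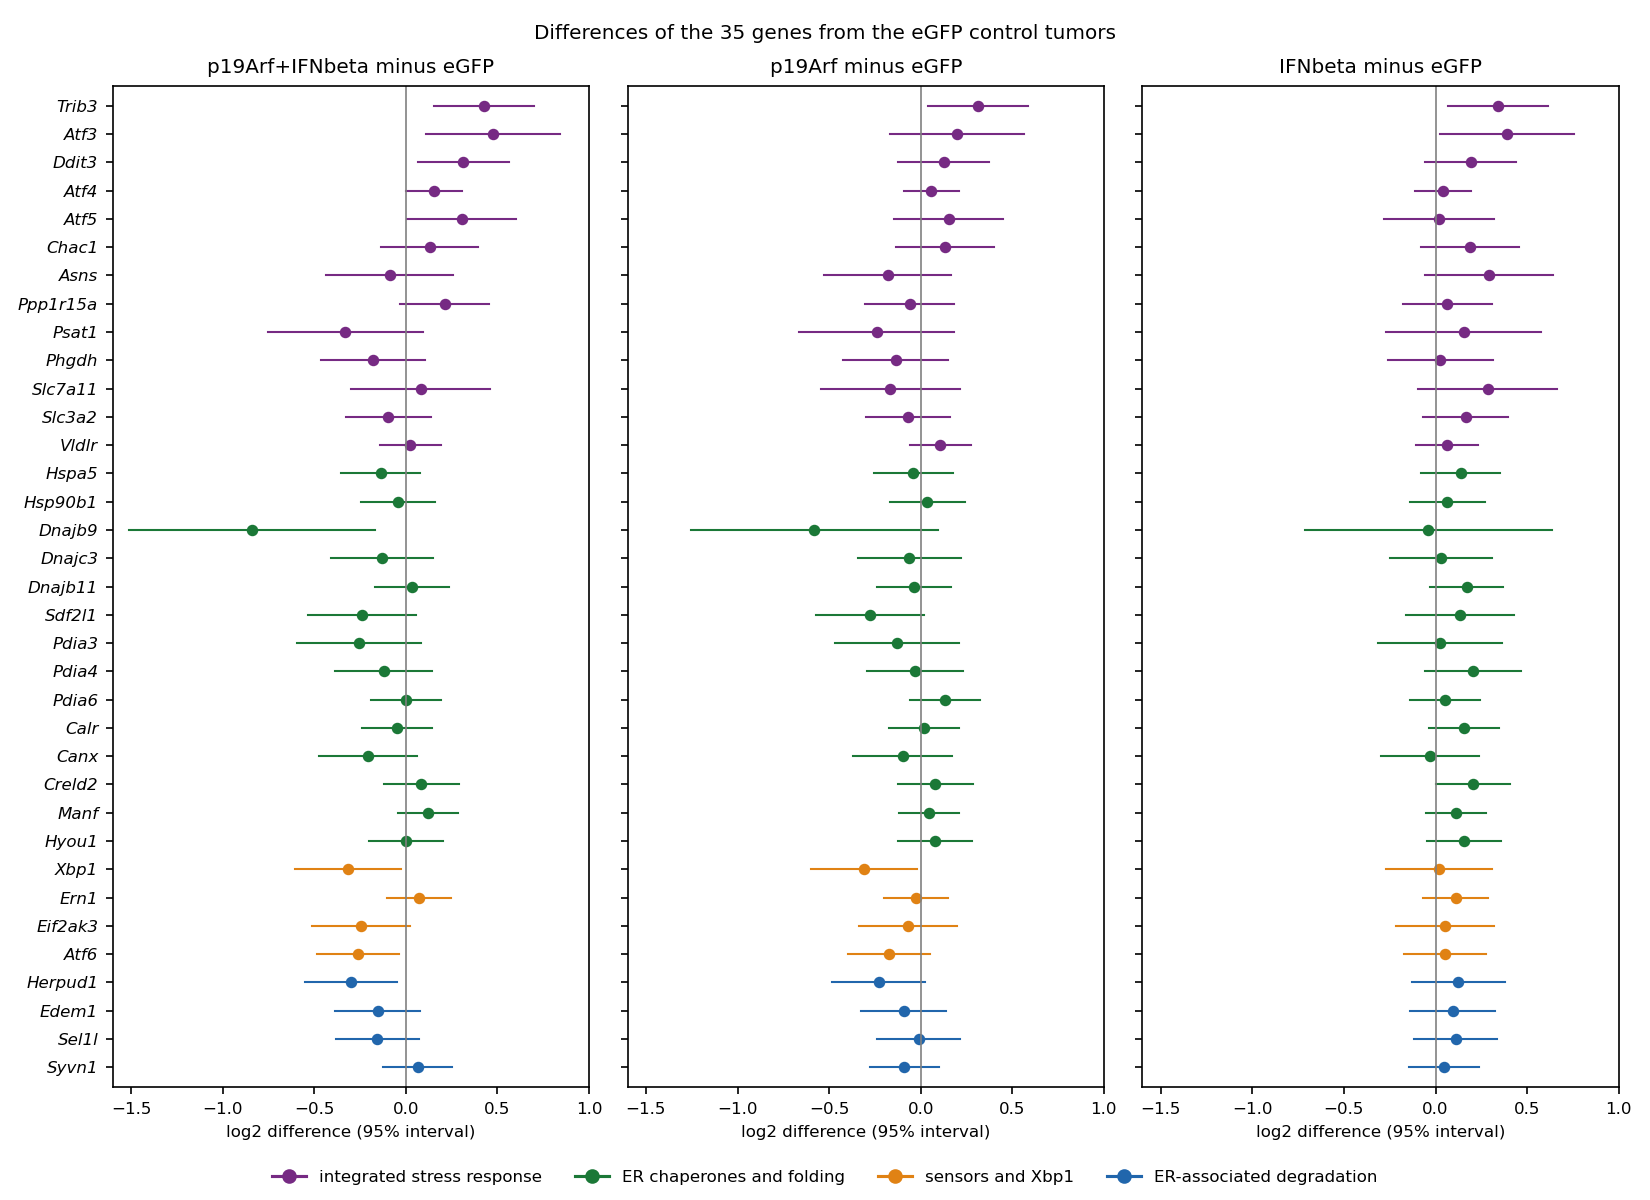
Log2 difference from eGFP with its 95% confidence interval from limma for each of the 35 genes, in combination, p19Arf and IFNbeta tumors, coloured by role. In IFNbeta tumors 33 of 35 points lie above 0, and in combination tumors the integrated stress response regulators lie above 0 while Dnajb9 reaches -0.84.

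The array spread moved with these differences. Entered as a covariate, it left Trib3 alone at an unadjusted p under 0.05 in the combination, at 0.33 (adjusted limma p 0.765). With that covariate, the combination differed from eGFP by -0.34 for Dnajb9, -0.11 for Herpud1, -0.10 for Atf6, -0.13 for Xbp1, 0.11 for Atf5, 0.30 for Atf3 and 0.19 for Ddit3. Without the 5 arrays of lowest spread, a setting added after the values had been seen, Trib3 differed by 0.37, Atf3 by 0.38, Ddit3 by 0.27, Dnajb9 by -0.58 and Herpud1 by -0.14. The part of the spread in the differences was not tested further.

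Combination tumors were also set against tumors with either transgene alone, comparisons that reuse the same combination arrays. Against IFNbeta, 27 of 35 genes were lower in the combination (median -0.17, against 0.05 over all genes), 13 of 14 chaperones, all 4 sensor genes and 3 of 4 degradation genes among them. At an unadjusted p under 0.05 there were 14 genes, all lower, 40.0% of the set against 25.8% of all genes, and against 14.0% counting lower genes alone. They were Herpud1 (-0.42 ± 0.12, SE, adjusted limma p 0.15), Atf6 (-0.31 ± 0.11), Hspa5 (-0.28 ± 0.10), Sdf2l1 (-0.37 ± 0.14), Pdia4 (-0.33 ± 0.13), Dnajb9 (-0.80 ± 0.32), Sel1l (-0.26 ± 0.11), Xbp1 (-0.33 ± 0.14), Psat1 (-0.48 ± 0.20), Slc3a2, Eif2ak3, Asns, Edem1 and Calr. After quantile normalization 20 of 35 genes were lower and the count at that level was 5 lower and 2 higher, and with a term for the array spread it was 1, Herpud1. The 14 became 3 without combination replicate 5, 4 without combination replicate 4 or IFNbeta replicate 5, 7 without IFNbeta replicate 4 and 9 without IFNbeta replicate 1. Leaving out IFNbeta replicate 3 brought Herpud1, Atf6, Sdf2l1, Pdia4, Dnajb9, Xbp1 and Psat1 past the adjusted threshold, where 11.8% of all genes also passed. Array weights brought 3 genes past it, with 8.68% of all genes.

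Against p19Arf alone the combination differed at an unadjusted p under 0.05 in 1 gene of 35, Ppp1r15a. It had 8.63, 8.42, 8.52, 9.02 and 8.75 in combination tumors, against 8.30, 8.59, 8.41, 8.47 and 8.23 in p19Arf tumors. The difference was 0.27 ± 0.12 (SE, adjusted limma p 0.998), and 3.07% of all genes reached an unadjusted p under 0.05. Atf3 differed by 0.28, Slc7a11 by 0.25, Ddit3 by 0.19, Syvn1 by 0.15, Eif2ak3 by -0.18 and Pdia6 by -0.13, short of it. The count was 6 without p19Arf replicate 2, 2 without combination replicate 1, and 0 without combination replicate 4 or p19Arf replicate 1 or 5.

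The interaction term asked whether the combination differed from the sum of the separate effects. No gene of the 35 was at an unadjusted p under 0.05, against 1.30% of all genes, and the smallest adjusted p of any gene was 1. The count was 3 without combination replicate 2 or p19Arf replicate 2 and 1 without IFNbeta replicate 3. The term was negative in 31 of 35 genes and in all 14 chaperones (13 of 14 after quantile normalization), where 52.2% of all genes had a positive one. The chaperones varied together across arrays (median r 0.45 among their pairs), so they are not 14 separate observations. The largest of these in absolute size among the named genes was Pdia4 at -0.29 ± 0.18 (SE), with Sel1l at -0.25 ± 0.15 and Hyou1 at -0.23 ± 0.14. All 3 of their 95% intervals included 0.

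Setting the 10 arrays with p19Arf against the 10 without gave the smallest adjusted p-values among the 35 genes. Herpud1 differed by -0.33 ± 0.09 (SE, adjusted limma p 0.061), Xbp1 by -0.32 ± 0.10 (0.0648), Sdf2l1 by -0.33 ± 0.10 (0.0663), Atf6 by -0.24 ± 0.08 (0.0666) and Dnajb9 by -0.69 ± 0.23 (0.0729). With the array spread as a term the same differences were -0.14 for Herpud1, -0.14 for Xbp1, -0.18 for Sdf2l1, -0.08 for Atf6 and -0.18 for Dnajb9, with adjusted limma p-values between 0.912 and 0.994. At an unadjusted p under 0.05 there were 12 genes, 10 lower, which also held Psat1, Asns, Hspa5, Slc3a2 and Edem1, and 2 higher, Trib3 (0.20) and Atf5 (0.22). That is 34.3% of the set against 32.8% of all genes, a share near the background, with 14.8% of all genes higher and 18.0% lower. Quantile normalization gave 6 higher and 4 lower, and median centring 0 higher and 12 lower. With a term for the array spread 1 gene, Herpud1, was at that level, against 5.42% of all genes. With array weights 8 genes passed the adjusted threshold, as did 26.1% of all genes. Without IFNbeta replicate 3, 8 passed, as did 19.5% of all genes. Leaving out combination replicate 1 gave 1 passing gene (6.22% of all genes), combination replicate 2 gave 7 (15.5%), p19Arf replicate 1 gave 5 (14.0%) and eGFP replicate 1 gave 5 (14.8%). The 12 genes at an unadjusted p under 0.05 became 6 without combination replicate 5, and 7 without combination replicate 4, p19Arf replicate 2, IFNbeta replicate 4 or 5 or eGFP replicate 4.

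In the 10 arrays with IFNbeta against the 10 without, 24 of 35 genes had a higher mean (median 0.05 against -0.02 over all genes). Atf3 (0.33 ± 0.12, SE), Trib3 (0.23 ± 0.09) and Ddit3 (0.19 ± 0.08) were at an unadjusted p under 0.05, each with an adjusted limma p of 0.959. They are 8.57% of the set against 4.92% of all genes, or 2.77% counting higher genes alone. The 3 became 5 without combination replicate 5, p19Arf replicate 1 or 2 or IFNbeta replicate 4, and 1 without p19Arf replicate 5. Slc7a11 differed by 0.26 ± 0.13 and Ppp1r15a by 0.17 ± 0.08. In the F test over the 4 groups, Herpud1 (adjusted limma p 0.279), Trib3, Sdf2l1, Atf6, Xbp1 and Dnajb9 were at an unadjusted p under 0.05, 17.1% of the set against 16.3% of all genes. These 6 became 3 without combination replicate 4, IFNbeta replicate 1 or 5 or eGFP replicate 4, 10 without p19Arf replicate 1, and 11 without combination replicate 2 or IFNbeta replicate 3.

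**Figure D3:**
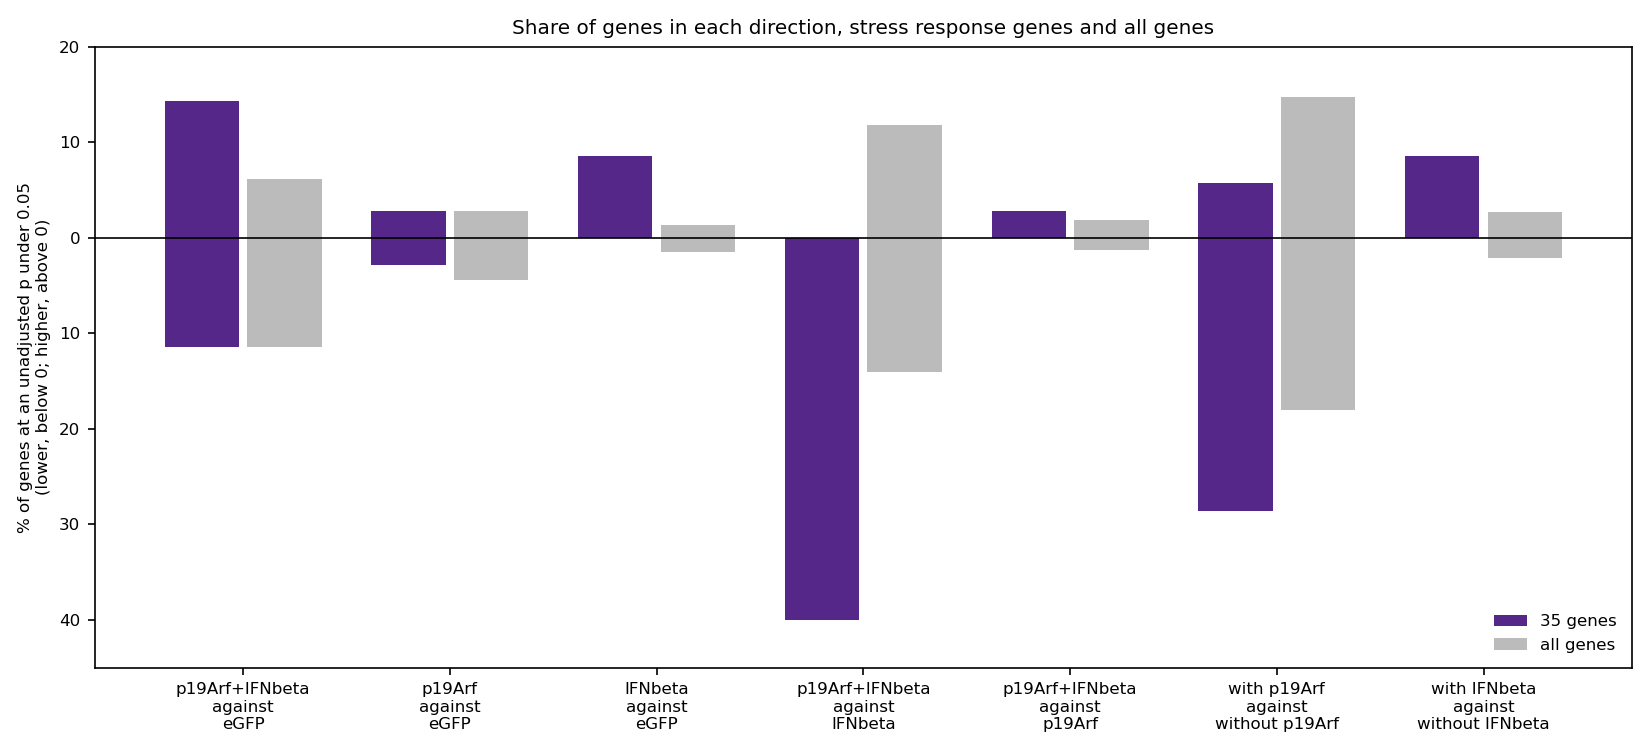
Percent of the 35 genes (purple) and of all 19938 genes (grey) at an unadjusted p under 0.05 in each of 7 comparisons, with higher genes drawn above 0 and lower genes below 0. In tumors with p19Arf the total share of the set, 34.3%, is close to the 32.8% of all genes.

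The 2 arms were then compared as the mean of their genes on each array. The integrated stress response score was 9.53 ± 0.10 in combination tumors, 9.44 ± 0.17 in p19Arf tumors, 9.59 ± 0.08 in IFNbeta tumors and 9.42 ± 0.06 in eGFP tumors (SD, n = 5 each). The chaperone score was 11.15 ± 0.20 in combination tumors, 11.22 ± 0.20 in p19Arf tumors, 11.38 ± 0.08 in IFNbeta tumors and 11.28 ± 0.06 in eGFP tumors. With IFNbeta both scores were higher than with eGFP, by 0.17 and 0.10, and with the combination the first was higher by 0.11 and the second lower by 0.13 (-0.13). The chaperone score minus the integrated stress response score ranged from 1.37 to 1.82 in combination tumors and from 1.76 to 1.99 in eGFP tumors, a difference of -0.24 ± 0.11 (SE). That difference was -0.17 after quantile normalization and -0.10 with a term for the array spread. The chaperone difference itself was 0.02 and 0.01 in those 2 settings, so its sign turned.

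**Figure D4:**
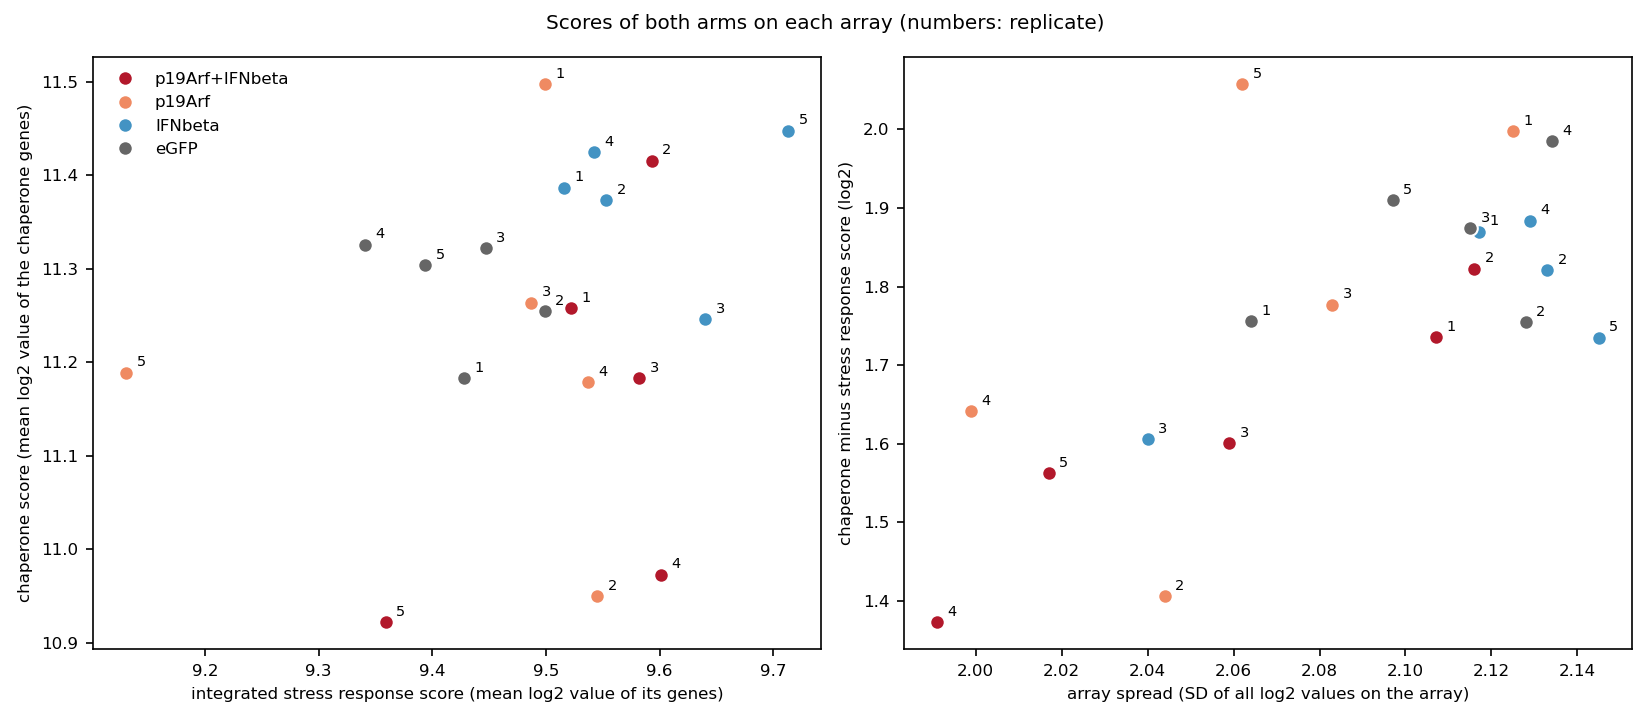
Left, the integrated stress response score against the chaperone score of each array; right, the chaperone score minus the integrated stress response score against the array spread, all on the log2 scale, with numbers for replicates and colours for groups. The combination arrays of lowest spread, replicates 4 and 5, lie among the low values of the chaperone score.

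Across the 20 arrays, with group means removed, some genes of different arms varied together. The correlations given here are over 20 arrays that each supply both values and share their array spread. The median r was 0.29 among pairs of integrated stress response genes and 0.45 among pairs of chaperones, against -0.01 over all pairs of genes on the arrays. With the array spread removed the medians were 0.36 and 0.30, so their order turned. Pairs with 1 gene from each arm covered -0.92 to 0.95, with a median of 0.03. Slc3a2 and Hspa5 correlated at 0.95 (Spearman 0.87), Asns and Psat1 at 0.94 (0.89), Pdia3 and Calr at 0.92 (0.77), and Atf3 and Ddit3 at 0.90 (0.61). Atf5 and Canx correlated at -0.92 (-0.91) and Atf5 and Dnajb9 at -0.90 (-0.79). All these pairs were picked from the highest and lowest of the 595 pairs of the set. With the array spread removed, the positive ones lay between 0.86 and 0.91. Atf5 then correlated with Canx at -0.85 and with Dnajb9 at -0.80.

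Some regulators and some amino acid genes of the integrated stress response arm were also followed as means. Both subsets, 7 of the 13 genes in all and without Atf4, Chac1, Ppp1r15a, Phgdh, Slc7a11 and Vldlr, were formed after the values had been seen, and are descriptions only. The mean of Trib3, Atf3, Ddit3 and Atf5 correlated with the chaperone score at -0.66 (Spearman -0.64), and at -0.50 without the 2 arrays farthest from the median. The mean of Asns, Psat1 and Slc3a2 correlated with the chaperone score at 0.91 (Spearman 0.87), and at 0.86 without 2 such arrays. With the array spread removed the values were -0.40 and 0.77. The 2 means correlated with each other at -0.47 (Spearman -0.43), at -0.24 without 2 such arrays and at -0.05 with the array spread removed. The score of all 13 genes had an r of 0.12 (Spearman 0.0064) with the chaperone score, and -0.15 without 2 such arrays.

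**Figure D5:**
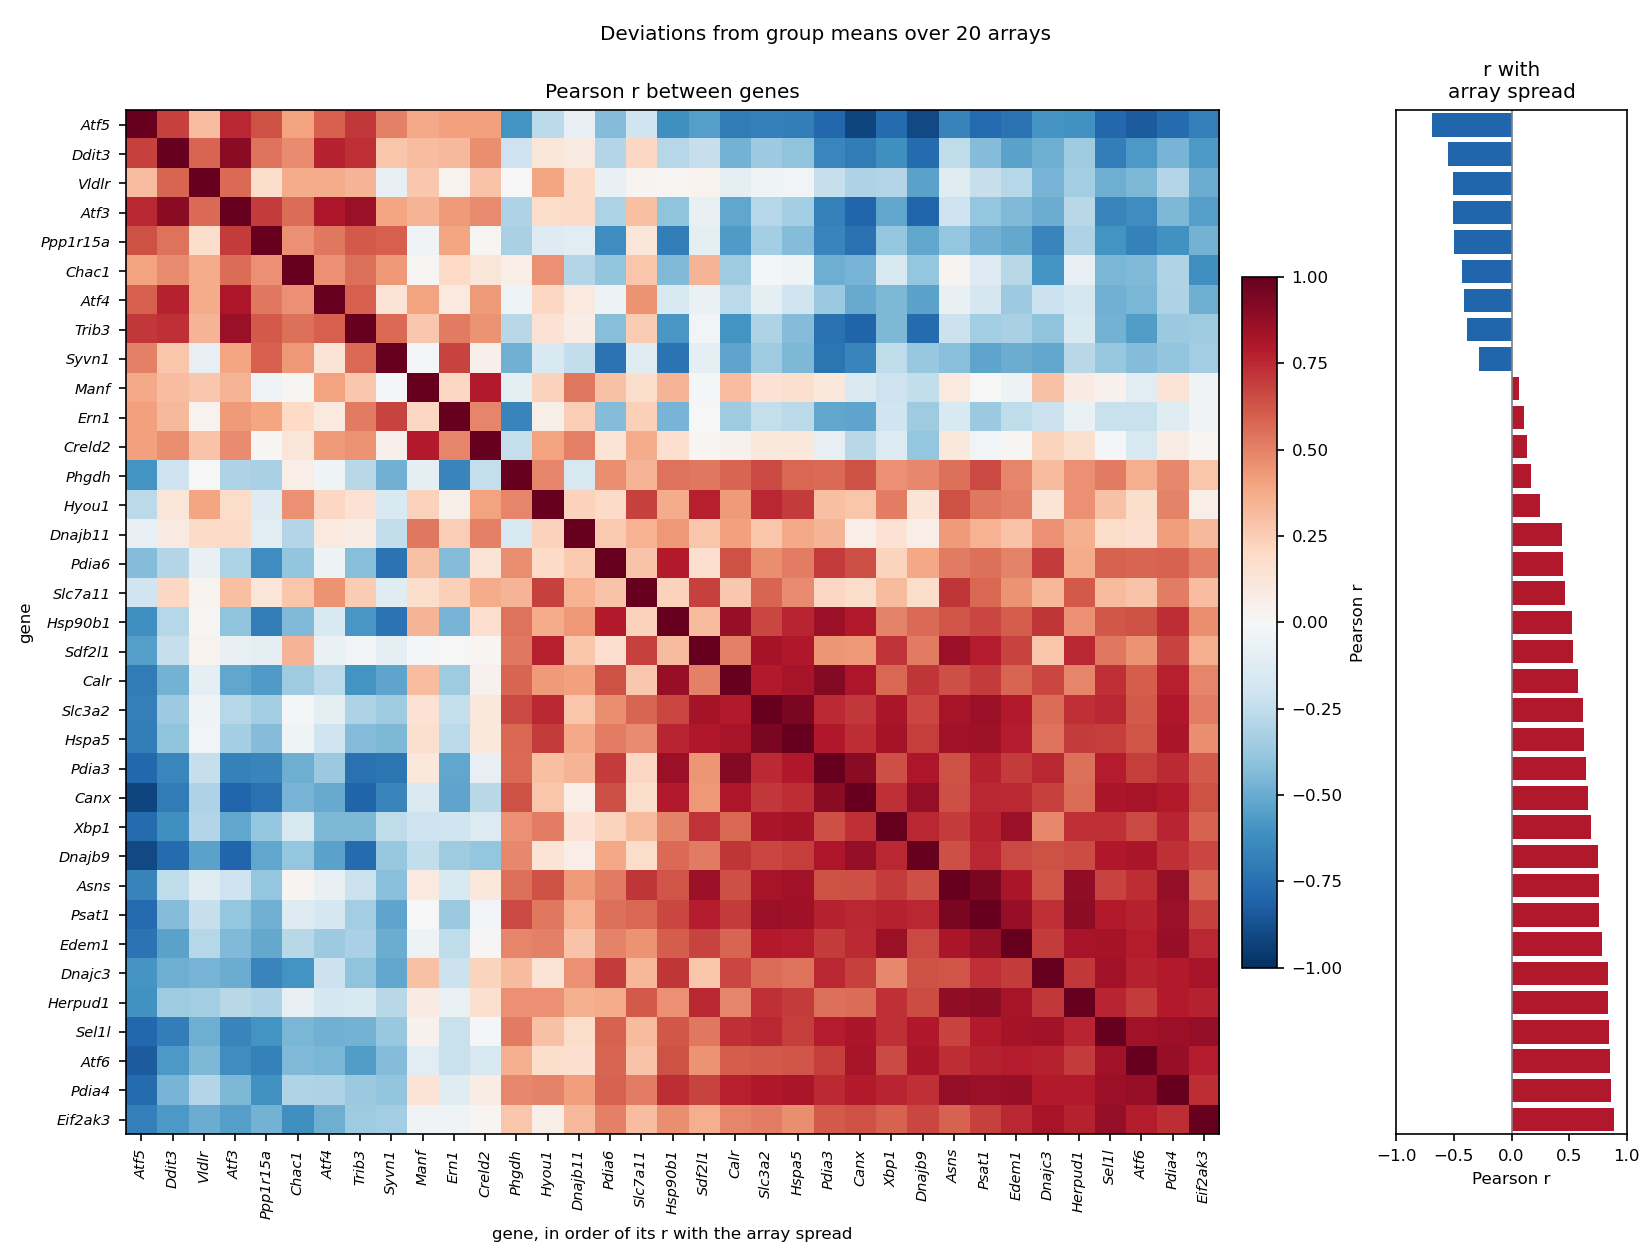
Pearson correlation of the array deviations from group means for all pairs of the 35 genes over 20 arrays, ordered by their correlation with the array spread, which the bars at the side give. The bars reach from -0.69 for Atf5 to 0.89 for Eif2ak3.

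The array spread had the same ordering. With group means removed, 18 of the 35 genes correlated with it above 0.5 and 5 below -0.5. The highest were Eif2ak3 (0.89), Pdia4 (0.86), Atf6 (0.86), Sel1l (0.85) and Herpud1 (0.84), and the lowest were Atf5 (-0.69), Ddit3 (-0.55), Vldlr (-0.51), Atf3 (-0.51) and Ppp1r15a (-0.50). All 14 chaperones had a positive and 8 of 13 integrated stress response genes a negative value. Correlations with the array spread were not computed over all genes, so these counts do not show a trait particular to the set.

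Other genes of the pathway, outside the 35, were taken from lists. Of 34 further genes linked to ATF4, 31 could be read, and none passed the adjusted threshold in any comparison. With IFNbeta 27 of 31 had a higher mean than with eGFP, 0 of them at an unadjusted p under 0.05. In the combination against eGFP 12 had a higher and 19 a lower mean, where 55.0% of all genes had a higher mean. At an unadjusted p under 0.05 there were 2 higher (Cebpb, a C/EBP factor, 0.38, and Cars, a transfer RNA synthetase, 0.25). There were 4 lower (Eif4ebp1, a translation inhibitor, -0.23, the transporter Slc7a5 -0.30, Cth of cysteine synthesis -0.32 and the synthetase Wars -0.31). Of all genes, 6.18% were higher and 11.4% lower at that level. Against IFNbeta 11 of 31 were lower at that level in the combination, against 14.0% of all genes, among them Cth (-0.47), Slc7a5 (-0.40), Aldh18a1 of proline synthesis (-0.40) and the amino acid transporter Slc7a1 (-0.31).

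Of 30 further ER folding and export genes 29 could be read. In the combination against eGFP 7 had a higher and 22 a lower mean, 1 higher at an unadjusted p under 0.05 (Sec61b, a subunit of the ER translocation channel, 0.35) and 9 lower (against the same 6.18% and 11.4% of all genes), among them Erp44 (-0.50), Sec61a1 (-0.42) and the oxidoreductase Ero1a (-0.34). The channel subunits Sec61b and Sec61a1 thus had differences of opposite sign. Of 12 genes of eIF2alpha kinases and their partners 11 could be read, and 6 were lower at that level in the combination against IFNbeta, as were 14.0% of all genes. These were the haem-regulated kinase Eif2ak1 (-0.40), the interferon-induced double-stranded RNA kinase Eif2ak2 (-0.34), the adaptor Nck1 (-0.42), the cytosolic co-chaperone Dnajb1 (-0.37), and Eif2b2 (-0.27) and Eif2b3 (-0.28) of the eIF2B exchange factor. Members of all these lists had adjusted limma p-values of 0.15 or more in that comparison.

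Markers of host cells moved beside these results, and their part in them was not tested. Skeletal muscle markers averaged 7.34 to 9.19 in combination tumors, 7.23 to 9.0 in p19Arf tumors, 7.25 to 9.61 in IFNbeta tumors and 7.21 to 8.00 in eGFP tumors, and 12 of 12 had a higher mean than eGFP in all 3 groups. Macrophage markers averaged 10.57 ± 0.32 in combination tumors, 10.56 ± 0.23 in p19Arf tumors, 10.78 ± 0.17 in IFNbeta tumors and 10.72 ± 0.17 in eGFP tumors (SD, n = 5 each), with 10 of 12 lower in the combination than in IFNbeta tumors. The fibroblast and matrix markers averaged 10.35 ± 0.29 in combination tumors and 10.16 ± 0.18 in eGFP tumors, with 8 of 12 higher. Adipocyte markers, 7 of 8 read, averaged 7.79 ± 0.31 in combination tumors, 7.72 ± 0.30 in p19Arf tumors, 8.05 ± 0.36 in IFNbeta tumors and 7.73 ± 0.33 in eGFP tumors. All 7 were higher in IFNbeta than in eGFP tumors (median 0.32) and all 7 lower in the combination than in IFNbeta tumors. All 8 skin epidermis markers read had a lower mean in the combination than in IFNbeta tumors, 0 of them at an unadjusted p under 0.05. Their average had a median of 6.49 and a highest value of 8.95 in IFNbeta tumors. In combination tumors the median was 6.60, so the typical IFNbeta array was not the higher one. T cell markers, 7 of 10 read, averaged 8.15 ± 0.27 in combination tumors and 7.91 ± 0.12 in eGFP tumors. Of the 7, 6 were higher, 3 of them at an unadjusted p under 0.05, where 6.18% of all genes were higher at that level. Of 10 neutrophil markers 8 were higher in the combination than in IFNbeta tumors, as were 57.1% of all genes. Against eGFP 6 of these markers were higher and 4 lower in the combination. All 8 endothelial markers were lower in p19Arf than in eGFP tumors, where 54.4% of all genes were higher. In the combination 4 of them were higher and 4 lower than in eGFP tumors. Plasma and B cell markers, relevant because secretory cells hold high levels of Xbp1 and chaperones, averaged 7.10 ± 0.29 in combination tumors, 7.15 ± 0.46 in p19Arf tumors, 7.10 ± 0.12 in IFNbeta tumors and 7.10 ± 0.29 in eGFP tumors over the 12 of 14 genes read. Interferon response genes, 17 of 20 read, averaged 9.88 ± 0.14 in combination tumors, 9.72 ± 0.25 in p19Arf tumors, 10.23 ± 0.30 in IFNbeta tumors and 9.80 ± 0.07 in eGFP tumors. All 17 had a higher mean in IFNbeta than in eGFP tumors, and 10 of 17 in the combination.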

How the data were processed

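The authors deposited log2 expression values per probe set for 20 arrays, and the submitters' processing notes name Affymetrix Expression Console and GCOS, without versions. No source used here states the summarisation method, and the log2 scale was read from the deposited values, which run from 2.33 to 14.7. The values carry no detection calls, and the number of arrays limits the precision.

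Of 35556 probe sets, 21789 name 1 gene, 1621 several and 12146 none. Symbols were updated through the gene table of GRCm38.p6 (91 not found there), and 1 probe set per gene, that of the highest mean, left 19938 genes. Groups were taken from the labels. limma 3.58.1 in R 4.3.3 fitted the 4 groups with lmFit and eBayes (16 residual and 6.06 prior degrees of freedom), with Benjamini-Hochberg adjustment over all genes within a comparison. The procedure was run on simulated data with independent noise for each gene. Such data lack the array spread shared by many genes, so the run does not show how that spread affects these differences. Exact permutation tests were two-sided. For each comparison, the named genes were the 8 with the smallest unadjusted p and the gene of smallest p in each role. The text does not print every one of these, and it gives values for other genes as a description. The members, the pathway lists and the marker lists were chosen with earlier results of these data known.

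Alternatives were quantile normalization, median centring, the array spread as a covariate, array weights, trended and robust variance moderation, a filter that left out the genes under the 0.25 quantile of mean level, the mean of all probe sets of a gene, fits of only the groups compared, a replicate block and each array left out. Leaving out the 5 arrays of lowest spread was added after seeing the data.

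Same-numbered arrays of different groups deviated together with a correlation over 0.1 in 11 of 30 pairs (lowest -0.62, highest 0.66), so the numbers were not taken to pair the samples. Promoter windows came from RefSeq. Atf6, Manf and Hyou1 had none at hand.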

Additional observations from a re-analysis of the deposited data

Results flagged for a closer look

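In 8 of 140 sets of 5 arrays (35 genes in 4 groups), 1 array stood farther from the rest than Dixon's 95% critical value for 5 samples. Chance gives about 1 in 20. The 8 fall on 3 arrays. IFNbeta replicate 3 accounts for Ddit3 at 9.49 (the other IFNbeta arrays at 8.93 to 9.08), Dnajb9 at 9.26 (10.42 to 10.54), Manf at 10.97 (10.69 to 10.76) and Eif2ak3 at 8.48 (8.75 to 8.86). The spread of this array, 2.04, is the lowest of the IFNbeta group. Its part in these values was not tested. p19Arf replicate 2, with a spread of 2.04, accounts for Atf5 at 9.22 (the other p19Arf arrays at 8.61 to 8.74) and Canx at 12.25 (12.78 to 12.97). Combination replicate 5, with a spread of 2.02, accounts for Slc7a11 at 8.24 (the other combination arrays at 9.06 to 9.25) and Hyou1 at 10.16 (10.53 to 10.63). All 3 arrays are among the 5 of lowest spread.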

How the results depend on the processing

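The 69 named differences kept their sign in all 2044 recomputed values, and 42 of these came newly past the adjusted threshold, in the comparisons of the combination with IFNbeta and of tumors with and without p19Arf. The named differences had been picked by small p-values on these same arrays, so their stable signs say little about the other genes. Over all 35 genes, p19Arf against eGFP went from 13 higher and 22 lower to 22 and 13 after quantile normalization. With the spread covariate it was 24 and 11. In the 3 comparisons with eGFP, 0 of the 35 genes passed it in any alternative run. Counts at an unadjusted p under 0.05 depended on the setting, and so did the share of all genes at that level. For IFNbeta against eGFP that share was 2.79% in the main fit, 5.43% with the array spread as a covariate and 15.7% with array weights. The counts below are given without it, so they show how far the set's count moves and not how it stands to other genes. With the array spread as a covariate they were 5 (IFNbeta against eGFP), 1 (p19Arf against eGFP) and 1 (combination against eGFP), 1 for the combination against IFNbeta, 2 against p19Arf, 2 for the interaction, 1 for p19Arf present or absent, 6 for IFNbeta present or absent and 2 for the F test. With array weights they were 5 (IFNbeta against eGFP), 5 (p19Arf against eGFP), 3 (combination against p19Arf), 7 (IFNbeta present or absent) and 13 (F test). With those weights 3 genes passed the adjusted threshold in the combination against IFNbeta (8.68% of all genes) and 8 for p19Arf present or absent (26.1%). In the F test 5 passed it, and the share of all genes is not given here. Quantile normalization gave 6 for IFNbeta against eGFP and 7 for the combination against IFNbeta. Fitting only the groups compared gave 7 for IFNbeta against eGFP. With the replicate block the count was 1 for p19Arf against eGFP and 7 for p19Arf present or absent, and 0 genes passed the adjusted threshold. Without the 5 arrays of lowest spread it was 1 for p19Arf against eGFP, 5 for the combination against IFNbeta, 3 against p19Arf, 5 for p19Arf and 5 for IFNbeta present or absent, and the interaction of the integrated stress response score was 0.034. The chaperone score of the combination minus IFNbeta was -0.072 after quantile normalization and -0.074 with the spread covariate. With 1 array left out, counts at an unadjusted p under 0.05 ran from 0 to 3 (IFNbeta against eGFP), 0 to 5 (p19Arf against eGFP), 4 to 13 (combination against eGFP), 3 to 16 (combination against IFNbeta), 0 to 6 (combination against p19Arf), 0 to 3 (interaction), 6 to 16 (p19Arf present or absent), 1 to 5 (IFNbeta present or absent) and 3 to 11 (F test). Genes past the adjusted threshold ran from 0 to 7 (combination against IFNbeta) and from 0 to 8 (p19Arf present or absent). The cause of these changes was not tested. With 5 arrays a group and no detection calls, small differences and low signals are poorly resolved.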
